A study of Mus musculus with 4 samples.

Results

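A group of 10 genes for protein folding in the endoplasmic reticulum (ER) was examined in the livers of *Usp21* KO and WT mice. The group holds the lumenal chaperones *Hspa5* and *Hsp90b1*, the lectin chaperones *Calr* and *Canx*, the disulfide isomerases *Pdia3*, *Pdia4* and *Pdia6*, the co-chaperones *Dnajb9* and *Sdf2l1*, and the transcription factor gene *Xbp1*. The members were chosen by gene symbol, and all 10 were found among the 35739 genes with a value. The list serves to set folding stress inside the ER apart from the heat shock response of the cytosol, so a list of 18 cytosolic chaperone genes was followed alongside. In all, 9581 genes had a mean of at least 1 TPM (a share of all transcripts, corrected for transcript length and scaled to the same total in each library) over the 4 libraries and were tested, among them the 10 ER genes.

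RNA-seq was performed on total RNA of liver, with 2 libraries per genotype, each numbered as a separate mouse: WT replicates 2 and 3 and *Usp21* KO replicates 1 and 3. *Usp21* encodes a deubiquitinating enzyme. The KO allele is constitutive and lacks exons 3 and 4, which were flanked by loxP sites in 129/Sv-derived ES cells and removed by crossing with a Cre-expressing strain, after an Flp-expressing strain had removed the selection cassette. WT animals were littermates that carry no *Usp21* deletion, both genotypes were young adults kept on a normal diet, and the KO alleles came through mice of a B6 × 129/Sv mixed background, so that 129/Sv sequence near the locus may travel with the deletion. *Usp21* itself reached 4.07 and 6.29 TPM in WT livers, compared with 1.64 and 2.93 TPM in KO livers. The KO values were the lower ones, but the log2 fold change of -0.92 ± 0.33 (SE) had an adjusted p = 0.464 (limma, Benjamini-Hochberg). The deletion leaves the other exons in place, and a value per gene does not show which exons the reads came from.

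The ER folds secreted and membrane proteins, and hepatocytes, which secrete most plasma proteins, carry a large load of them. When unfolded proteins build up, 3 sensors in the ER membrane respond. IRE1 (gene *Ern1*) cuts a short intron out of *Xbp1* mRNA so that an active factor is made, ATF6 is carried to the Golgi and cut by proteases to free a transcription factor, and PERK (gene *Eif2ak3*) slows translation and favours ATF4. The ATF6 and XBP1 branches raise ER chaperones and degradation factors, whereas misfolding in the cytosol is answered by HSF1, which raises *Hspa1a*, *Hspa1b*, *Hsph1* and their like through a different DNA element.

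A DNA element found in ER chaperone genes is the ER stress response element (ERSE), bound by ATF6 or XBP1 together with NF-Y. Its exact form, the block CCAAT followed after any 9 bases by the block CCACG, was searched on both strands of a window from 250 bases before to 50 bases after the start of each gene (RefSeq, GRCm38.p6), and it was found in 5 of the 10 ER genes, compared with 37 of 27025 genes with such a window (0.137%). The genes were listed as ER chaperones and targets of XBP1 and ATF6, so this count is a description and not a test. The matches are shown because they are what these 5 promoters share. Each is given 5′ to 3′ on the strand that reads as the element, with capitals for the CCAAT and CCACG blocks that define it.
*Hspa5*: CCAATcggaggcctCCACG
*Hsp90b1*, farther from the start: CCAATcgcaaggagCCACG
*Hsp90b1*, nearer to the start: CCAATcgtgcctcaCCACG
*Calr*: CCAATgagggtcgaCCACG
*Canx*: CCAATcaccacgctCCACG
*Pdia6*: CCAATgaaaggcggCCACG

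The *Hspa5* match lies at chr2:34772025-34772043 on the forward strand, 65 to 47 bases before the RefSeq start, and inside the untranslated part of the first exon of a longer GENCODE M21 transcript that begins further upstream. The other matches lie outside the GENCODE models of their genes. *Hsp90b1* has its matches at chr10:86705638-86705656 and chr10:86705533-86705551, *Calr* at chr8:84847075-84847093, *Canx* at chr11:50325800-50325818 and *Pdia6* at chr12:17266491-17266509. All lie within the last 212 bases before the start, and those of *Calr* and the nearer one of *Hsp90b1* run against the direction of the gene. Among the other ER chaperone genes, 2 of 11 with a window held the element, and among the cytosolic heat shock genes 0 of 13 did. The heat shock element (GAA, TTC and GAA blocks, each 2 bases after the one before), searched the same way, was in 0 of the 10 ER genes and in 2 of the 13 heat shock genes (*Chordc1* and *Hsph1*), against 0.662% of all windows. The shorter ERSE-II (ATTGG and CCACG with 1 base between them, 0.0444% of all windows) and the UPRE core (TGACGTGG, 0.714%) were in 0 of the 10. A missing match says only that these letters were not in this window.

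**Figure D1:**
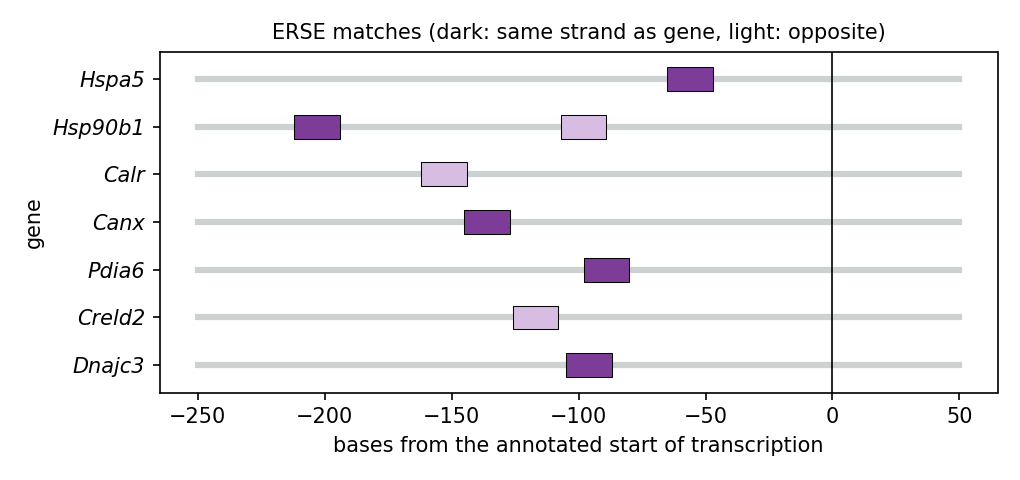
Position of each exact ERSE match (boxes) in the window from 250 bases before to 50 bases after the start of transcription (x axis, bases; 0 is the RefSeq start), for the 5 ER genes and 2 other ER chaperone genes that hold one (y axis). Dark boxes read in the direction of the gene and light boxes against it, and every box lies before the start.

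Across these 4 libraries none of the 10 ER genes was called as different between genotypes, and most of them were highest in a single library, KO replicate 3. With limma on log2(TPM + 1) and Benjamini-Hochberg adjustment over all 9581 genes, 0 of the 10 passed an adjusted p of 0.05, against 0.0835% (8 genes) of all genes tested. At an unadjusted p under 0.05, 0 of the 10 were higher in KO livers, against 8.45% of all genes. By group means, 9 of the 10 were higher in KO livers, compared with 66.7% of all genes. After the upper quartile scaling described next, 7 of the 10 were, compared with 54% of all genes. Both KO libraries lay above both WT libraries for 5 of the 10, compared with 34.4% of all genes, and below both for 0 of the 10, compared with 10.9%.

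That count depended on the scaling. Median log2 fold change over all genes tested was 0.15 with the deposited TPM and 0.04 after upper quartile scaling, in which each library is divided by its 75th percentile over the genes tested. After that scaling, both KO libraries lay above both WT libraries for 0 of the 10 ER genes, against 24.5% of all genes. The median log2 fold change of the 10 was 0.29 with the deposited TPM and 0.15 after the scaling, so relative to all genes it was about the same small amount above the median under both. *Calr* and *Xbp1* turned from higher to lower in KO livers (log2 fold changes of -0.05 and -0.04 after scaling), and *Pdia6* was lower under both.

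**Figure D2:**
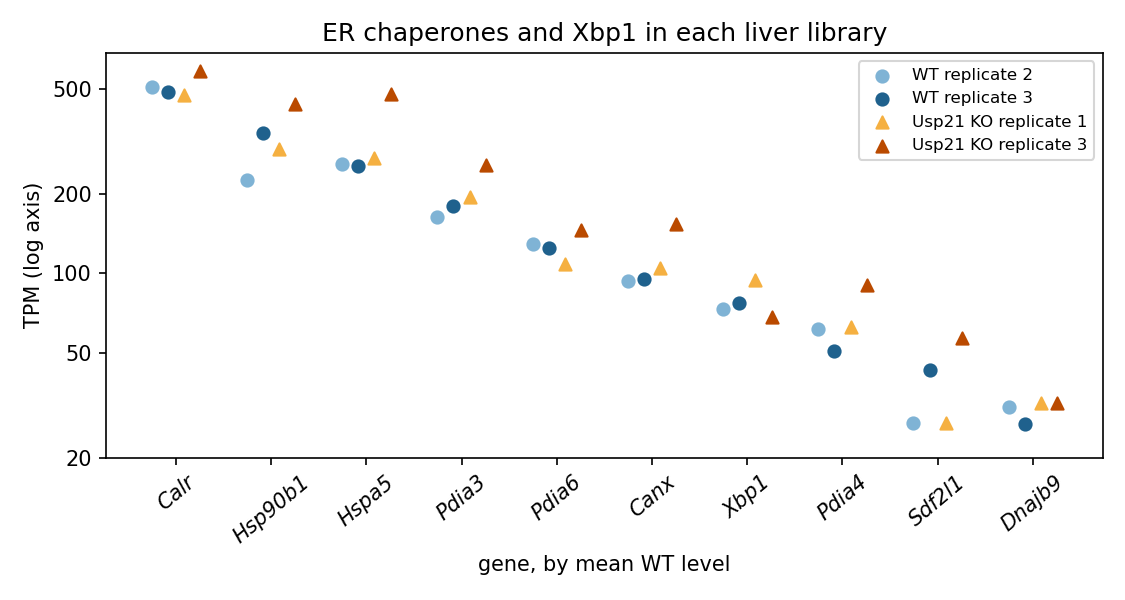
TPM of the 10 ER genes (y axis, log scale) in each of the 4 libraries, ordered by mean WT level (x axis); circles are WT and triangles *Usp21* KO. *Usp21* KO replicate 3 is the highest of the 4 points for 8 genes, with *Dnajb9* and *Xbp1* as the exceptions.

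*Hspa5*, which encodes BiP, the main lumenal chaperone and the brake on all 3 sensors, was at 259.7 and 256 TPM in the WT livers and at 274 and 478 TPM in the KO livers. The WT livers were nearly equal and KO replicate 1 lay just above them, while KO replicate 3 stood apart. The log2 fold change was 0.49 ± 0.29 (SE, 95% interval -0.22 to 1.20), with an adjusted p = 0.548 (limma, Benjamini-Hochberg). It was 0.09 without KO replicate 3 and 0.89 without KO replicate 1. *Hspa5* is on chromosome 2 (34771970 to 34777547, forward strand, GRCm38).

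*Hsp90b1*, the ER member of the HSP90 family (GRP94), was at 227 and 342 TPM in the WT livers and at 297 and 439 TPM in the KO livers, so that the genotypes overlapped. Its WT livers lay farther apart than those of *Hspa5*, and KO replicate 3 was again the highest. The log2 fold change was 0.37 ± 0.29 (adjusted p = 0.639, limma with Benjamini-Hochberg). Leaving out WT replicate 2 or KO replicate 3 lowered it to 0.08 or 0.09, and leaving out WT replicate 3 or KO replicate 1 raised it to 0.67 or 0.65.

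The lectin chaperones calreticulin (*Calr*, soluble) and calnexin (*Canx*, in the membrane) hold newly made glycoproteins. *Calr* was at 509 and 489.8 TPM in the WT livers and at 477 and 588 TPM in the KO livers. Its KO libraries thus lay on either side of the WT libraries, and its log2 fold change was 0.09 ± 0.19 (95% interval -0.38 to 0.55). *Canx* was at 93.7 and 95.6 TPM in the WT livers and at 105 and 154 TPM in the KO livers. Both KO libraries lay above WT, KO replicate 1 by little, and the log2 fold change was 0.43 ± 0.22 (adjusted p = 0.518, limma with Benjamini-Hochberg). Without KO replicate 3 it was 0.15.

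Disulfide isomerases form and rearrange the disulfide bonds of secreted proteins. *Pdia3* (ERp57), the partner of both lectin chaperones, was at 163 and 181 TPM in the WT livers and at 195 and 259 TPM in the KO livers. *Pdia4* (ERp72) was at 61.5 and 50.9 TPM in the WT livers and at 62.6 and 90.5 TPM in the KO livers. For both genes the KO libraries lay above the WT libraries, with log2 fold changes of 0.38 ± 0.20 and 0.42 ± 0.24 and adjusted p = 0.517 and 0.536 (limma, Benjamini-Hochberg). Without KO replicate 3 these were 0.18 and 0.16, and after upper quartile scaling the genotypes overlapped for both genes. *Pdia6* (P5) was at 129 and 125 TPM in the WT livers and at 109 and 146 TPM in the KO livers. Its lowest and its highest library were both KO, and the log2 fold change was -0.01 ± 0.20 (95% interval -0.50 to 0.48).

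The co-chaperones went different ways. *Dnajb9* (ERdj4), a J-protein partner of BiP and a well-known XBP1 target, was at 31.2 and 26.8 TPM in the WT livers and at 32.3 and 32.1 TPM in the KO livers. It was the one ER gene with almost the same level in both KO livers, and its log2 fold change was 0.15 ± 0.18 (adjusted p = 0.759, limma with Benjamini-Hochberg). Of the short stretches of its transcripts, 10.8% also occur in another gene, and the pseudogene *Gm6568* that shares them was listed at 0 TPM. *Sdf2l1*, which works with J-proteins of the ER, was at 27.1 and 42.9 TPM in the WT livers and at 27 and 57 TPM in the KO livers. Its 2 low and 2 high livers were 1 of each genotype, its log2 fold change of 0.20 ± 0.40 had the largest SE of the 10, and it was -0.32 without KO replicate 3.

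*Xbp1*, the factor gene of the IRE1 branch, was at 73.4 and 77 TPM in the WT livers and at 94.3 and 68.5 TPM in the KO livers. Here KO replicate 1 was the highest and KO replicate 3 the lowest, with the WT libraries between them. The log2 fold change was 0.10 ± 0.21 (95% interval -0.42 to 0.61), with 0.32 without KO replicate 3 and -0.13 without KO replicate 1. What IRE1 changes in this mRNA is a stretch of 26 bases, which lies in exon 4 of the main GENCODE M21 transcript (chr11:5524279-5524304, forward strand) and is shown because the spliced and the unspliced form differ by these letters alone, all in capitals.
*Xbp1* intron: CAGCACTCAGACTATGTGCACCTCTG
Its removal lengthened the reading frame of that transcript from 267 to 371 codons. No intron of 26 bases is annotated for *Xbp1*, and TPM per gene add both forms together, so the active form was not measured.

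The order of the levels in WT liver was *Calr* (mean 499 TPM), *Hsp90b1* (285), *Hspa5* (258), *Pdia3* (172), *Pdia6* (127), *Canx* (94.7), *Xbp1* (75.2), *Pdia4* (56.2), *Sdf2l1* (35) and *Dnajb9* (29). Neighbours overlapped in the WT libraries only for *Hsp90b1* with *Hspa5* and for *Sdf2l1* with *Dnajb9*. Among the 9581 genes, *Calr* ranked 177 and *Dnajb9* ranked 1986 by mean WT level. Together the 10 genes made up 0.158% and 0.169% of all TPM in the WT livers and 0.168% and 0.232% in the KO livers, so that KO replicate 1 lay between the WT livers and KO replicate 3 above them all.

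The split between the KO livers was seen across the group. KO replicate 3 was the highest of the 4 libraries for 8 of the 10 genes, compared with 21.6% of all genes tested, and after upper quartile scaling the count was also 8, against 23% of all genes. This count was chosen after the values were seen. KO replicate 3 lay above both WT libraries for 9 of the 10 genes (44.3% of all genes), and KO replicate 1 for 6 of the 10 (57.6% of all genes). Relative to the WT mean on the log2(TPM + 1) scale, the median of the 10 was 0.12 in KO replicate 1 and 0.62 in KO replicate 3, whereas the median over all genes was 0.22 and 0.08. After upper quartile scaling these medians were -0.07 and 0.54 for the 10 genes, and 0.06 and 0.02 over all genes. Under both scalings the median of the 10 was higher in KO replicate 3 than in KO replicate 1. In KO replicate 1 it lay slightly below the WT mean after upper quartile scaling. Within the KO genotype the ratio of TPM, replicate 3 to replicate 1, was 2.11 for *Sdf2l1*, 1.75 for *Hspa5*, 1.47 for *Hsp90b1*, 1.46 for *Canx*, 1.45 for *Pdia4*, 1.34 for *Pdia6*, 1.33 for *Pdia3* and 1.23 for *Calr*. It was 0.996 for *Dnajb9* and 0.726 for *Xbp1*. A difference between 2 single libraries has no replicate check and was given no test.

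Markers of other liver cells also differed between the KO livers. The 7 Kupffer cell markers (liver macrophages) summed to 97.3 and 109.6 TPM in the WT livers and to 54.9 and 143 TPM in the KO livers, and 7 of 7 were higher in KO replicate 3 than in KO replicate 1. The 6 sinusoidal endothelial markers summed to 45 and 34.9 TPM in the WT livers and to 37.6 and 54.9 TPM in the KO livers. *Clec4g* carried this sum (21.3 and 36.8 TPM in KO replicates 1 and 3), and 4 of the 6 were higher in KO replicate 3 than in KO replicate 1. The sum of 6 hepatocyte markers ranged from 45722 TPM in KO replicate 3 to 68851 TPM in WT replicate 2, and none of the 6 was at 0. *Alb* carried this sum (27475 and 43181 TPM in those libraries). *Hnf4a* was instead higher in the KO livers (171 and 155 TPM) than in the WT livers (112 and 105 TPM). The 6 stellate cell markers summed to 54.6 and 45.5 TPM in the WT livers and to 84.1 and 63.4 TPM in the KO livers, and the 5 bile duct markers to 14.6 and 15.9 TPM and to 37.9 and 24.5 TPM. These sums were highest in KO replicate 1, unlike the Kupffer and endothelial sums. *Dcn* carried the stellate sum (62.8 and 48.4 TPM in KO replicates 1 and 3), and 2 of the 5 tested stellate markers were higher in KO replicate 3. *Spp1* carried the bile duct sum (33.4 and 20.7 TPM in KO replicates 1 and 3), whereas *Krt19* was slightly higher in KO replicate 3 (0.998 and 1.28 TPM). The B and plasma cell markers, of interest because plasma cells are rich in ER chaperones, were at 5 TPM or less in every library for 6 of 6 and summed to between 1.95 and 3.35 TPM. Of the plasma cell genes among them, *Jchain* was at 0.197 and 0.451 TPM in the WT livers and at 1.54 and 1.57 TPM in the KO livers, and *Mzb1* was above 0 in KO replicate 3 alone (0.556 TPM). Of the 6 pancreatic acinar markers, *Prss2*, *Cpa1*, *Pnlip* and *Amy2a5* were listed at 0 in all libraries, and *Cela1* alone, at 28.7 to 42.2 TPM, made up nearly all of the sum of 29.3 to 43.4 TPM. The part of any of these cells in the ER genes' levels was not tested, and in bulk tissue fewer cells of a type and less RNA per cell cannot be told apart.

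The members did not all differ the same way between the KO livers. The 8 chaperone, isomerase and *Sdf2l1* genes were higher in KO replicate 3 than in KO replicate 1, whereas *Xbp1* and *Dnajb9* were not. Among all 9581 genes tested, 3371 were higher in KO replicate 3. This is a difference between single libraries and was given no test. By Euclidean distance of log2(TPM + 1), each gene centred on its own mean over the 4 libraries, the member closest to *Hspa5* was *Canx* (0.195), followed by *Pdia4* (0.27) and *Pdia3* (0.323), and the farthest was *Xbp1* (0.974). Among 3925 genes outside the lists with a mean of at least 10 TPM, the nearest to *Hspa5* were *Ankrd46* (0.075), *Nans* (0.118), *Arl8b* (0.155), *Ptov1* (0.17) and *Tmem33* (0.188). With 4 libraries such a likeness is a description only.

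**Figure D3:**
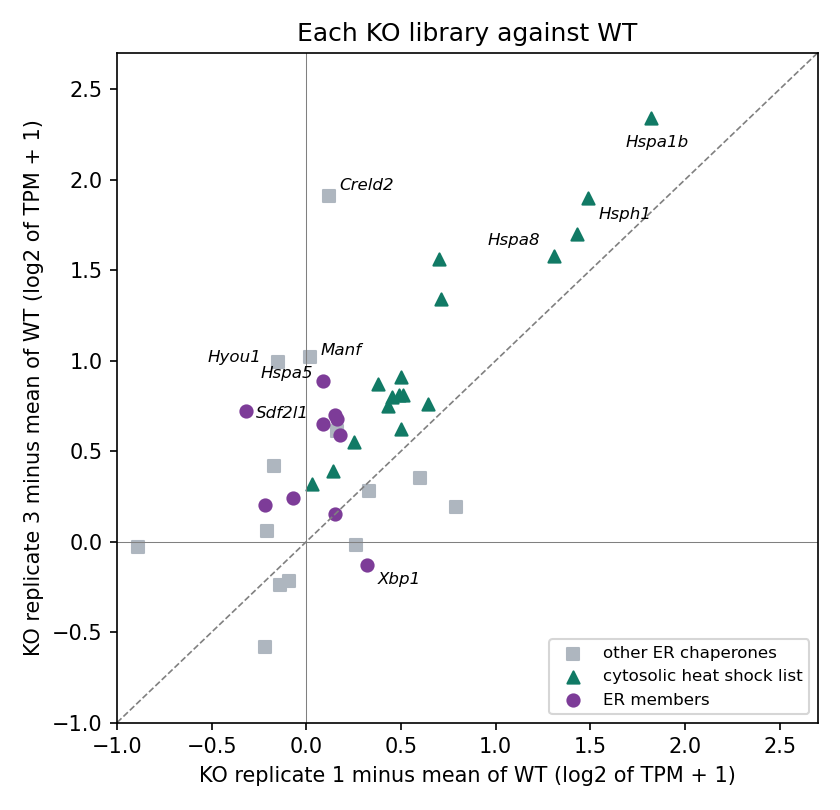
Each gene's level in KO replicate 1 (x axis) and in KO replicate 3 (y axis), both as the difference from the WT mean in log2(TPM + 1), for the 10 ER genes, 14 other ER chaperone genes and 17 cytosolic heat shock genes; the dashed line marks equal differences. The heat shock genes lie above 0 on both axes, whereas most ER genes lie near 0 on the x axis and above 0 on the y axis.

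The other genes of ER folding were read in the same way. Of 14 other ER chaperones and co-chaperones, 9 were higher and 5 lower in KO livers by their means (66.7% of all genes were higher). Of these 14, 0 were called, and the median log2 fold change was 0.21, compared with 0.15 over all genes. *Creld2*, an ER stress-induced isomerase-like protein, was at 19.2 and 17.5 TPM in the WT livers and at 20.1 and 71.6 TPM in the KO livers. *Manf*, a secreted ER stress protein, was at 119 and 116 TPM in the WT livers and at 119 and 239 TPM in the KO livers. *Hyou1*, an HSP70-like exchange factor of BiP, was at 25.1 and 24 TPM in the WT livers and at 22 and 49.8 TPM in the KO livers. All 3 had KO replicate 1 near WT and KO replicate 3 far above it, as *Hspa5* did, and *Manf* and *Hyou1* were picked after their values were seen. The list as a whole shared this less than the 10 ER genes did. Of the 14, 5 were highest in KO replicate 3 (21.6% of all genes), and 7 were higher there than in KO replicate 1 (3371 of all 9581 genes). The median difference between the KO livers was 0.10 (log2), compared with 0.47 for the 10 ER genes and -0.14 over all genes. *Sdf2*, a relative of *Sdf2l1*, was instead higher in both KO livers (17.9 and 19.1 against 28.6 and 23.9 TPM), and *Sil1*, another exchange factor of BiP, was lower in both (40.5 and 36 against 32.7 and 25.2 TPM). Their adjusted p were 0.473 and 0.516 (limma, Benjamini-Hochberg).

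Among all genes tested, 66.7% were higher in KO livers by their means and 0.0835% were called, with a median log2 fold change of 0.15. Of 13 other ER oxidoreductases, 8 were higher and 5 lower, with 0 called and a median log2 fold change of 0.13. Those with the lowest unadjusted p were *Tmx3* (log2 fold change 0.56), *Ero1l* (0.37), the oxidase that recharges the isomerases, and *Pdia5* (0.25). Of 20 genes of glycoprotein quality control and ER-associated degradation, 13 were higher and 7 lower, with 0 called and a median of 0.06. *Syvn1*, the ubiquitin ligase HRD1 that marks misfolded ER proteins, was at 12.3 and 10.2 TPM in the WT livers and at 20.1 and 23.3 TPM in the KO livers. Both KO livers were about equally high, unlike the chaperones, and the log2 fold change was 0.89 ± 0.20 with an adjusted p = 0.45 (limma, Benjamini-Hochberg). On its few reads in a second deposited table (CPM, counts scaled to library size) the direction was the opposite (-0.61). *Edem3*, a mannosidase that tags glycoproteins for degradation, and *Ube2g2*, a ubiquitin-conjugating enzyme, had log2 fold changes of 0.71 and 0.43. Of 21 genes of translocation into the ER and N-glycosylation, 12 were higher and 9 lower, with 0 called and a median of 0.03. Its lowest unadjusted p belonged to *Sec62* (log2 fold change 0.66), *Sec11c* (0.49) and *Srprb* (0.66).

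The sensors themselves were low. *Ern1* was at 2.99 and 4.05 TPM in the WT livers and at 6.12 and 4.94 TPM in the KO livers. *Eif2ak3* was at 1.84 and 1.63 TPM in the WT livers and at 3.44 and 2.33 TPM in the KO livers. *Atf6* was at 6.8 and 6.58 TPM in the WT livers and at 5.4 and 5.6 TPM in the KO livers. The genotypes did not overlap for these genes, upward for *Ern1* and *Eif2ak3* and downward for *Atf6*, with adjusted p of 0.501, 0.536 and 0.673 (limma, Benjamini-Hochberg). Among all genes tested, both KO libraries lay above both WT libraries for 34.4% and below both for 10.9%. Of the 8 sensor and protease genes 7 were higher by their means and 0 were called, compared with 66.7% and 0.0835% of all genes. In the PERK-ATF4 arm, 8 of 14 genes passed the filter on low values. Of these, 4 were higher, 4 lower and 0 called. The higher ones include *Mthfd2* and the lower ones *Asns*, each of which passed only through 1 KO library. For *Asns* this was KO replicate 1 (0.803 and 1.11 TPM in the WT livers, 2.25 and 0.117 TPM in the KO livers). No median is given for this list, since it would rest in part on these genes. *Ddit3* (CHOP), the death-linked factor of that arm, was at 2.51 and 5.22 TPM in the WT livers and at 8.95 and 5.55 TPM in the KO livers. *Ppp1r15a* (GADD34), a phosphatase subunit that restores translation, had a log2 fold change of 0.70 with an adjusted p = 0.496 (limma, Benjamini-Hochberg), and of 0.27 without WT replicate 2. *Mthfd2*, an ATF4 target, was at 0.777 and 0.351 TPM in the WT livers and at 0.36 and 3.18 TPM in the KO livers. It passed the filter on low values only through KO replicate 3, so no fold change is given for it.

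The cytosolic heat shock genes, listed with their values known, were set beside the ER genes as a description with no test. Of 18 genes, 17 were tested, 17 were higher in KO livers by their means (66.7% of all genes), and 0 passed the adjusted threshold, while 10 were higher with an unadjusted p under 0.05 (8.45% of all genes). Both KO libraries lay above both WT libraries for 15 of the 17 (34.4% of all genes), and for 13 of the 17 after upper quartile scaling (24.5% of all genes). At least 2-fold differences were seen for 6 of the 17, compared with 0 of the 10 ER genes and 3.68% of all genes. The median log2 fold change was 0.66, which was 0.38 above that of the ER genes (spread of this difference between replicates 0.23, SD). It was 0.38 above under upper quartile scaling too, and 0.19 above without KO replicate 1.

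*Hspa8* (HSC70), the constitutive chaperone of the cytosol, was at 382 and 718 TPM in the WT livers and at 1299 and 1569 TPM in the KO livers. *Hsph1*, an HSP70 exchange factor, was at 7.28 and 13.9 TPM in the WT livers and at 30.2 and 40.6 TPM in the KO livers. *Chordc1*, an HSP90 co-chaperone, was at 4.34 and 6.38 TPM in the WT livers and at 15.9 and 19.4 TPM in the KO livers. Each of these had both KO livers above both WT livers by a wide gap, with log2 fold changes of 1.45 ± 0.33, 1.70 ± 0.33 and 1.56 ± 0.25 and adjusted p of 0.449, 0.402 and 0.29 (limma, Benjamini-Hochberg). The cytosolic relatives of *Hsp90b1*, *Hsp90aa1* and *Hsp90ab1*, had log2 fold changes of 1.02 and 0.70, against 0.37 for *Hsp90b1*. The stress-induced *Hspa1b* was at 0.656 and 3.97 TPM in the WT livers and at 9.11 and 13.5 TPM in the KO livers, and 68% of the short stretches of its transcript also occur in another gene, so its share against its near-copy *Hspa1a* is uncertain. For *Hspa8* this share was 43.5%, and the pseudogene *Gm15459*, which shares the most with it, was at no more than 0.591 TPM. *Hspa4* was the least different (log2 fold change 0.17), and *Hsf1*, the factor of this response, was at 0.71.

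**Figure D4:**
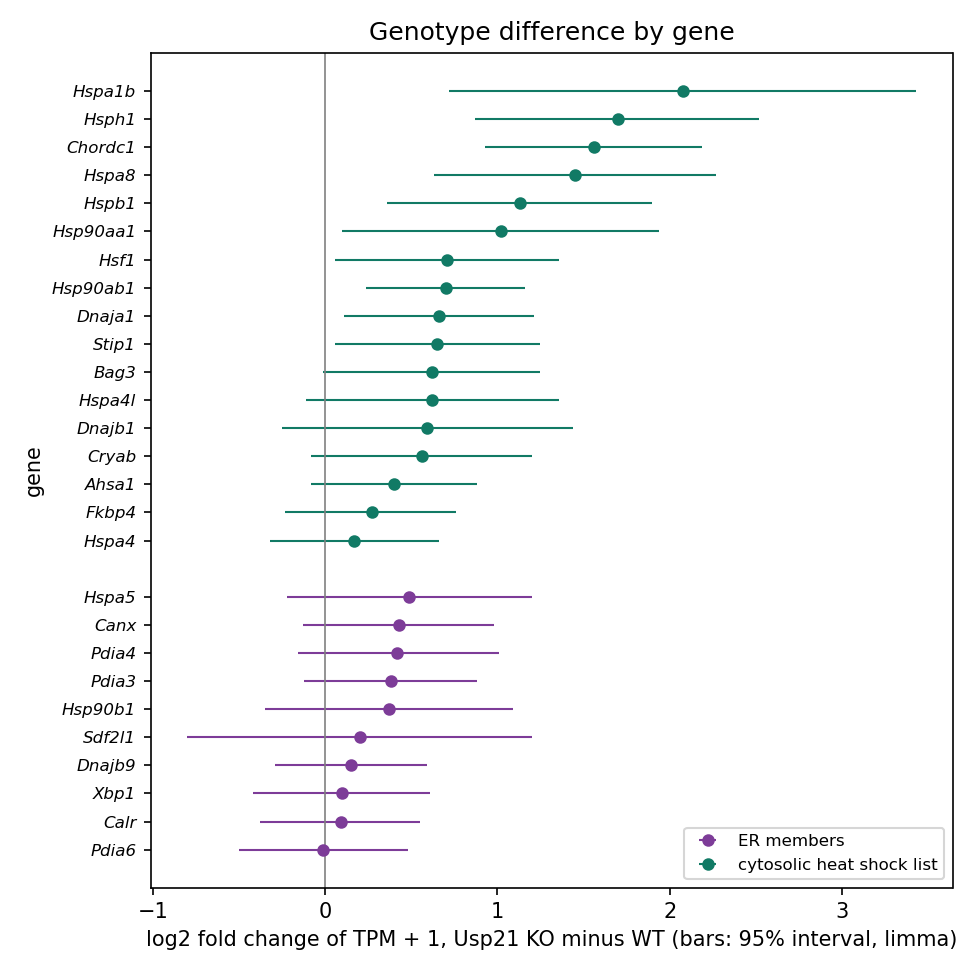
Log2 fold change of TPM + 1, *Usp21* KO minus WT (x axis), for the 10 ER genes and the 17 cytosolic heat shock genes that were tested (y axis); bars are 95% intervals from limma, with 2 libraries per genotype. All 10 ER intervals include 0.

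KO replicate 3 was also the highest library for 17 of the 17 heat shock genes, as for most ER genes. The medians of the lists lay farther apart in KO replicate 1, where they were 0.50 (heat shock) and 0.12 (ER) relative to the WT mean, than in KO replicate 3, where they were 0.81 and 0.62. The summed heat shock level was 979, 1488, 2282 and 2786 TPM in WT replicates 2 and 3 and KO replicates 1 and 3, compared with 1575, 1687, 1674 and 2312 TPM for the ER genes. The heat shock sum also differed within WT, where 14 of 17 genes were higher in replicate 3 than in replicate 2, compared with 5 of the 10 ER genes.

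Genes of the day cycle and of feeding were also read. *Dbp*, a clock output gene, was at 56.8 and 41.3 TPM in the WT livers and at 4.73 and 4.97 TPM in the KO livers, and it fell by 3.08 on the log2 scale (adjusted p = 0.0193, limma with Benjamini-Hochberg). That call was lost with any one library left out (adjusted p from 0.111 to 0.357, limma), without moderation (0.438) and without the filter on low values (0.0577), and on the few reads of the CPM table the direction turned (log2 fold changes of 1.14 to 1.59). *Arntl* (BMAL1), a core clock gene in opposite phase, was at 0.241 and 0.243 TPM in the WT livers and at 5.89 and 4.05 TPM in the KO livers. It passed the filter on low values only through the KO livers, so no test result is given for it. *Pck1*, a gene of fasting, was at 476 and 559.9 TPM in the WT livers and at 581 and 853 TPM in the KO livers, highest in KO replicate 3, while *Fasn*, a gene of feeding, was at 35.2, 155, 47.8 and 23.4 TPM in the same order and lowest there. ER chaperone levels in liver are known to vary with feeding, and the part of feeding or time of day in the values of the 10 genes was not tested.

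The CPM table was too thin for these genes. Its values correspond to between 102898 and 148164 reads per library, and of the 686 genes that reached 100 TPM in each library it gave 428 a value of 0 throughout. Of the 10 ER genes, 9 had at most 1 read in any library. *Canx* alone had more, with 7 and 3 reads in the WT livers and 16 and 10 in the KO livers (53.7, 27.5, 107 and 92.2 CPM). Its log2 fold change there was 1.20 with an adjusted p = 0.708 (limma, Benjamini-Hochberg), and since *Syvn1* and *Dbp* turned direction in the same table, nothing is drawn from it. TPM keep no record of depth, and no counting interval can be given for them.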

How the data were processed

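Liver RNA-seq of 2 WT and 2 *Usp21* KO mice was analysed. Per the labels and the tables, the authors estimated transcript abundance with Salmon (mm10) and deposited it as TPM per gene, with a second table of the same values as log2(TPM + 1). The authors also counted aligned reads with HTSeq, normalized them with edgeR and deposited them as CPM, treated here as a signal, with a log2 version. The processing notes also name Partek and deepTools. Versions, annotation release and strand setting are not given in the sources used here. Values of 1 read (7.68, 9.17, 6.68 and 9.22 CPM) gave 100% whole reads within 0.02.

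Samples and columns were assigned by their labels and the number of per-sample columns without a sample was 0. Genes averaging 1 TPM or more were tested on log2(TPM + 1), with a pseudocount of 1, by limma 3.58.1 (lmFit, eBayes with trend, prior degrees of freedom 3.62) in R 4.3.3, two-sided, with Benjamini-Hochberg adjustment over all 9581 genes and a threshold of 0.05. Because of the pseudocount, fold changes of genes at low levels come out too small. The study used ANOVA in Partek, which was not repeated. Nothing says that the RNA was extracted or sequenced in separate batches, and no batch entered the model. On the recovered reads edgeR 4.0.16 called 12 genes and DESeq2 1.42.0 called 1, of 5146.

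The members and all lists were chosen with earlier results of these data known. Named genes are the 10 members, *Usp21*, from each related list the genes past the threshold or otherwise the 3 with the lowest unadjusted p, any sensor or heat shock gene, clock and feeding genes, and the 5 genes nearest to *Hspa5*. Older symbols were matched through Ensembl identifiers (*Ero1l*, *Arntl*). Coordinates and transcripts are from GENCODE M21 (GRCm38), promoter windows from RefSeq (GRCm38.p6), where all 10 members matched. Protein sequences were not used here. The alternatives were other pseudocounts (0.1 and 5), no filter or a mean of at least 5 TPM, upper quartile scaling, no moderation of variances, the CPM table, and each library left out in turn. The scripts were tested on simulated data.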

Additional observations from a re-analysis of the deposited data

How the results depend on the processing

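No member was called by limma under any alternative on the TPM. Upper quartile scaling took the count of members whose KO values both exceeded WT from 5 to 0 and turned *Calr* (-0.05) and *Xbp1* (-0.04). Leaving out each library in turn gave 5 to 9 for that count and 0.12 to 0.62 for the members' median log2 fold change, the highest of both without KO replicate 1. It gave -0.07 to 0.24 for *Calr*, -0.22 to 0.20 for *Pdia6*, -0.32 to 0.72 for *Sdf2l1*, -0.13 to 0.32 for *Xbp1* and -0.15 to 0.99 for *Hyou1*. Genes called among all tested, 8, became 4 without the filter on low values, 0 without moderation, 1 by DESeq2 on the recovered reads and 0 to 7 with a library left out. *Dbp* lost its call without the filter (adjusted p = 0.0577, limma), without moderation and without any one library. Among the CPM, 1 of 10 members had over 3 reads, so no count or median over the members is given there; of the 5 named genes with over 3 reads in a library and reads in both genotypes, *Syvn1* (-0.61 by limma, -0.60 by edgeR, -0.72 by DESeq2) and *Dbp* (up to 1.59 by DESeq2, with 1.54 by edgeR and 1.14 by limma) turned direction. The cause of these changes was not tested. The pseudocounts of 0.1 and 5 and the stricter filter turned no named gene. No paired analysis was made, because neither the labels nor the paper ties a given WT mouse to a given KO mouse. With 2 libraries per genotype and no read depth known for the TPM, a difference within the intervals given was not detectable.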
